A study of Mus musculus with 18 samples.

Results

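The 1278 genes described here are the protein-coding genes of mouse chromosome 11 that reached 10 counts in at least 2 libraries. They were taken from 1639 coding genes of the chromosome in a table of 54446 genes. Of the others, 332 fell under the count minimum, 16 of them without a read in any library, and 29 were left out by symbol (19 Zfp, 2 Hist, 6 Rpl and 2 Rps names). The Rps names left out include Rps6kb1, a kinase gene, beside the ribosomal protein gene Rps27a. Just inside the minimum were Grm6 and Gip, each with 10 reads in its second-highest library, and just outside it were Glra1 and Meox1, each with 9. By the same rule the other autosomes held 13439 coding genes. The members were chosen by their read counts, and the chromosome by its log2 CPM profile in the Mettl3 libraries against Ythdc1_Control_0h, so that profile is given as a description, with no test.

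Nuclear RNA of C57BL/6 mouse embryonic stem cells was sequenced in 18 libraries, 2 for each of 9 groups. The 6 Mettl3 libraries are 2 each of Mettl3_KO1 and Mettl3_KO2, labelled as knockouts of the m6A methyltransferase gene Mettl3, and of their control line Mettl3_Control, all at 0 h. The 12 Ythdc1 libraries are Ythdc1_cKO, labelled as a conditional knockout of the gene for the nuclear m6A reader, and Ythdc1_Control, each after 0, 3 and 6 h of actinomycin D, a drug that stops transcription, at 5 µg per ml. All cells grew in serum with LIF and inhibitors of GSK3 and MEK (CHIR99021 and PD0325901). The labels give neither the Cre driver of the conditional line, nor the edit in Mettl3_KO1 and Mettl3_KO2, nor whether each line is 1 clone. They do not say whether the libraries of a group are separate cultures, so a p-value here reflects only how much these libraries vary, and that variation may be technical.

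Mouse chromosome 11 is rich in genes. It carries the Hoxb cluster, the tumour suppressor genes Trp53 and Brca1, the topoisomerase gene Top2a and the imprinted gene Grb10. METTL3 places N6-methyladenosine (m6A) on RNA in the nucleus, and YTHDC1 binds it there and is known to act on splicing, export and decay. Mouse embryonic stem cell lines kept in culture are known to gain whole chromosomes at times, 8 and 11 among them. DNA was not analysed here, and a count of RNA reads does not give a copy number.

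RefSeq promoter windows on GRCm38.p6, running from 250 bases before to 50 bases after the start, were matched by symbol for 982 of the 1278 members. Those of 5 members are shown because the results below turn on them: Suz12, Usp34 and Top2a were low in all 6 Mettl3 libraries, Axin2 differed in 5 comparisons and Socs3 fell under the drug. Capitals mark GC boxes (GGGCGG) and CCAAT boxes (CCAAT), each searched on both strands. Suz12 (chr11:79992856-79993155, plus strand) has 3 GC boxes and 1 CCAAT box, Usp34 (chr11:23306645-23306944, plus strand) 5 GC boxes, some of which overlap, and no CCAAT box, and Top2a (chr11:99024140-99024439, minus strand) 1 GC box and 6 CCAAT boxes. Axin2 (chr11:108920099-108920398, plus strand) has 2 GC boxes and 1 CCAAT box, and Socs3 (chr11:117969317-117969616, minus strand) has 2 GC boxes.
Suz12: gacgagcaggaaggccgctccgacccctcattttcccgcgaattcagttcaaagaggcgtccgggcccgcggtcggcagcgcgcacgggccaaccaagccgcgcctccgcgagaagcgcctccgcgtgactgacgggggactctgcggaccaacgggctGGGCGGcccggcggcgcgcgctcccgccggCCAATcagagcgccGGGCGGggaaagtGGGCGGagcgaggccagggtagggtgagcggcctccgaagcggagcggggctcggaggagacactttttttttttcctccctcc
Usp34: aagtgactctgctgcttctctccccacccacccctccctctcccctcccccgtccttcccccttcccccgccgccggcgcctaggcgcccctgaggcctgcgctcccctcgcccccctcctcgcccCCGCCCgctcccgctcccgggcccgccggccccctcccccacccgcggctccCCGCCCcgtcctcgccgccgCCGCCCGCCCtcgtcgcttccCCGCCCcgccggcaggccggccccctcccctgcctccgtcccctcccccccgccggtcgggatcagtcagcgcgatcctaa
Top2a: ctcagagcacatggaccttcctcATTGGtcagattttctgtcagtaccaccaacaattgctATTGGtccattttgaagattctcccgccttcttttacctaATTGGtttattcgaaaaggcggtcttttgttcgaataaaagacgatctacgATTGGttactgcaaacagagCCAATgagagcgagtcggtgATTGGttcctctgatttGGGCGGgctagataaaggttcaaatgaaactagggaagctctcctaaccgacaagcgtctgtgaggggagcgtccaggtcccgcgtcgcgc
Axin2: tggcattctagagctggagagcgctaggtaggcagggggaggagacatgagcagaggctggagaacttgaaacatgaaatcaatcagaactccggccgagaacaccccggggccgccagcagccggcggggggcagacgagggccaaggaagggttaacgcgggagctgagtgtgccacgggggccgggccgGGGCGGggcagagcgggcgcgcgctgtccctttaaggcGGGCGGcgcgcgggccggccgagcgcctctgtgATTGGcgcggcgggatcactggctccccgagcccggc
Socs3: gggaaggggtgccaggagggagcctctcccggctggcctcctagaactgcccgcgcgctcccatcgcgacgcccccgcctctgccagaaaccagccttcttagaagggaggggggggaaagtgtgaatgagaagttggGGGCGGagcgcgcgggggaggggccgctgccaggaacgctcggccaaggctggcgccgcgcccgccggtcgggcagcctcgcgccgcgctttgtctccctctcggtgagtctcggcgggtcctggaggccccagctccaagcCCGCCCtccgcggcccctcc

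Over the members as a whole these letters were as common as elsewhere in the genome. A GC box was found in 61.7% of member promoters and in 61.3% of those of the other autosomes, against 35.9% of all promoters in the table, which includes many genes not counted here. A CCAAT box was found in 37.3% of member promoters and 38.0% elsewhere, against 37.9% of all, and a TATA box (TATAAA, both strands) in 7.54% and 7.76%, against 14.2% of all. Members had a median promoter GC content of 60.3%, the same as other autosomal genes. They were shorter, with a median of 3.64 kb of exon against 4.35 kb, and spanned 17.2 kb against 24.9 kb. Their median level over the Mettl3 and Ythdc1_Control_0h libraries was 4.92 CPM (read counts scaled to the library's total) per kb of exon, against 3.37 elsewhere.

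Gene reads per library ranged from 4950973 to 30989044. All 8 embryonic stem cell markers examined, Pou5f1, Nanog, Sox2 and Esrrb among them, were read in every library, and their summed level was 2112 to 3748 CPM. Mettl3 itself had 31.0 and 29.5 CPM in Mettl3_KO1 and 21.4 and 20.8 in Mettl3_KO2, against 34.2 and 29.7 in Mettl3_Control, so the label was matched by a lower count only in KO2 (log2 -0.61 ± 0.081, SE, adjusted p = 7.42e-10; KO1 -0.10 ± 0.077, adjusted p = 0.316). Ythdc1 had 144.6 and 121.3 CPM in the 0 h libraries labelled cKO, against 149.2 and 136.5 in Ythdc1_Control_0h (log2 -0.07 ± 0.079, adjusted p = 0.557). At 3 and 6 h it was lower in cKO, with 14.9 and 15.6 CPM at 3 h and 20.2 and 19.6 at 6 h, against 54.2 and 52.1 at 3 h and 52.0 and 48.0 at 6 h in Ythdc1_Control. A gene total cannot reveal a lost exon, and the groups are called here as they are labelled. These and all later adjusted p-values come from edgeR's quasi-likelihood test with Benjamini-Hochberg adjustment over all genes tested.

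The members took a smaller share of reads in every Mettl3 library than in any Ythdc1 library. Of the reads on autosomal coding genes they held 9.35% in Mettl3_KO1 (SD 0.0029, n = 2), 10.1% in Mettl3_KO2 (SD 0.0111) and 9.14% in Mettl3_Control (SD 0.0199), against 14.04% in Ythdc1_Control_0h (SD 0.0402). Among the other Ythdc1 groups the share was 13.3% to 14.6%, and 14.7% in Ythdc1_Control_6h. The 95% Wilson interval of a library's share spans at most 0.0682 percentage points, which covers counting error only. In bulk RNA, fewer cells of a type and less RNA per cell cannot be told apart.

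The same difference was seen gene by gene. Each member's log2 CPM, scaled over all 18 libraries, was set against the mean of the Ythdc1_Control_0h libraries, and the median over coding genes of the other autosomes was subtracted. A value of 0 thus marks a gene that differs as the typical autosomal gene does. The member median was -0.57 and -0.55 in the Mettl3_KO1 libraries, -0.43 and -0.45 in Mettl3_KO2, and -0.55 and -0.58 in Mettl3_Control. In the 12 Ythdc1 libraries it lay between -0.11 and 0.21, so the libraries of the 2 experiments did not overlap. On the linear scale the group medians were 0.680 times the typical gene in Mettl3_KO1, 0.734 in Mettl3_KO2 and 0.680 in Mettl3_Control. The Ythdc1_cKO_0h group, set against the same reference, had 0.952. A ratio between lines does not show which line departs, and the cell line and the experiment cannot be told apart. Reads assigned to no gene made up 36.3% to 40.4% of gene, ambiguous and unassigned reads together in the Mettl3 libraries. In Ythdc1_Control_0h they made up 50.1% and 49.7%. The counts do not show whether such reads lay between genes or within introns. The other Ythdc1 libraries lay on both sides of the Mettl3 range, at 52.4% and 53.6% in Ythdc1_cKO_0h and at 18.1% to 24.5% after 3 and 6 h. The part of these reads in the profile was not tested.

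**Figure D1:**
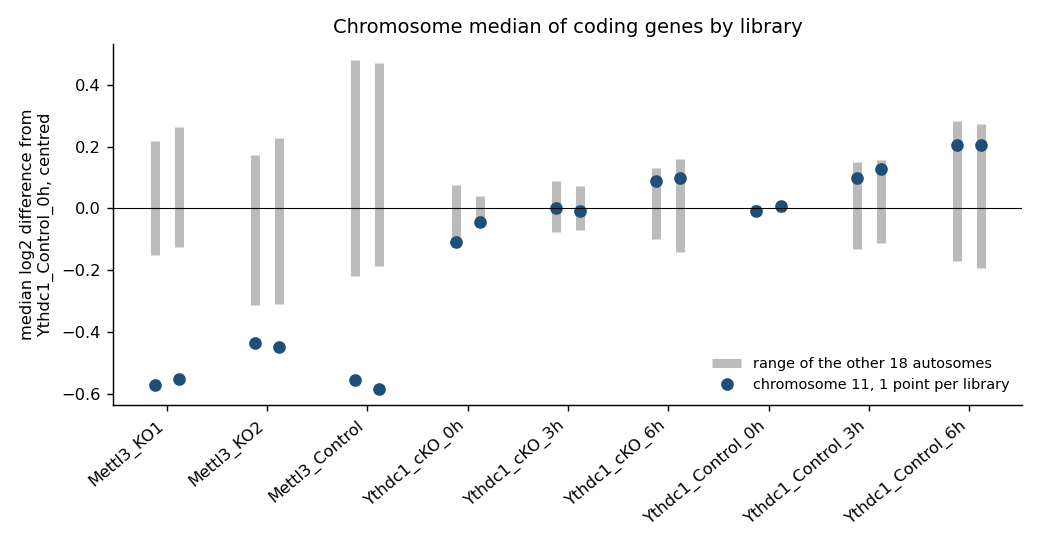
Median log2 difference from Ythdc1_Control_0h of the chromosome 11 members (blue points, 1 per library), centred on coding genes of the other autosomes, with the range of the medians of the other 18 autosomes (grey bars). The 6 Mettl3 libraries lie between -0.58 and -0.43, below every other autosome of the same library, and the 12 Ythdc1 libraries lie between -0.11 and 0.21.

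No other autosome stood as far from the typical gene in any of the 3 Mettl3 groups. In Mettl3_KO1 the next were chromosome 6 at 0.23 and chromosome 12 at -0.15, against -0.56 for chromosome 11. In Mettl3_KO2 the next was chromosome 14 at -0.31, against -0.45. In Mettl3_Control chromosome 8 stood at 0.48 and chromosome 6 at 0.24, against -0.56. Chromosome 8, with 804 coding genes, was at -0.02 in Mettl3_KO1 and 0.09 in Mettl3_KO2, so its departure was seen in the control line and not in the lines labelled as knockouts. That of chromosome 11 was present in all 3 lines.

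**Figure D2:**
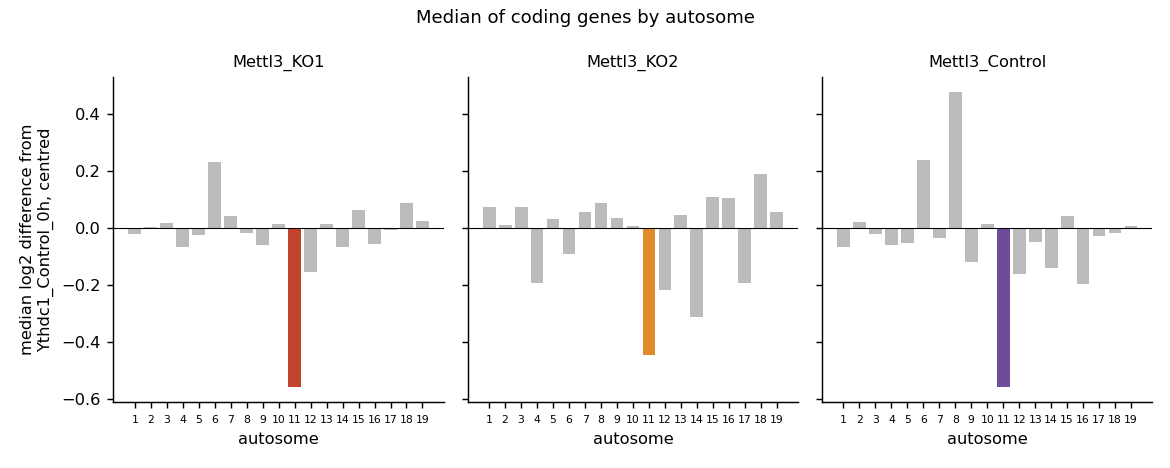
Median log2 difference from Ythdc1_Control_0h over the coding genes of each autosome (grey bars; chromosome 11 coloured), centred on the other autosomes, in Mettl3_KO1, Mettl3_KO2 and Mettl3_Control. Chromosome 11 is the lowest bar in each panel, at -0.56, -0.45 and -0.56.

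More members lay below the typical gene than above it. Below the typical gene were 915 of 1278 members in Mettl3_KO1 (71.6%), 882 in Mettl3_KO2 (69.0%) and 888 in Mettl3_Control (69.5%). For other autosomal genes the share was 49.996%, which is set by centring on their own median. In all 3 groups at once 766 members were below (59.9%, against 37.8% of all autosomal coding genes) and 253 were above (19.8%, against 34.6%). All 6 Mettl3 libraries were below both Ythdc1_Control_0h libraries for 671 members (52.5%, against 30.8% of all autosomal coding genes). They were above both for 176 members (13.8%, against 25.6%). Those shares describe the contrast that chose the chromosome, and nothing is read from them.

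All 13 bins of 10 Mb had a median below 0 in each of the 3 Mettl3 groups. Elsewhere 40.3% to 51.1% of 233 such bins were below 0. In the bin from 10 to 20 Mb, 9 of 18 members were below the typical gene in Mettl3_KO1 and likewise in Mettl3_KO2, close to the share found elsewhere. In bins of 5 Mb some medians were above 0. They were 0.09 at 15 to 20 Mb in Mettl3_KO1, and 0.22 at 10 to 15 Mb, 0.05 at 25 to 30 Mb and 0.98 at 35 to 40 Mb in Mettl3_KO2, over 5 to 15 members each. In Mettl3_KO1 the lowest bin was 80 to 90 Mb, at -0.78 over 101 members, and the highest was 10 to 20 Mb, at -0.07 over only 18 members. In Mettl3_KO2 the lowest was 0 to 10 Mb, at -0.66, and the highest again 10 to 20 Mb, at -0.09. In Mettl3_Control they were 0 to 10 Mb, at -0.89 over 87 members, and 40 to 50 Mb, at -0.32 over 48. A running median of 51 members was below 0 in all 1228 windows of Mettl3_KO1, in 1222 of Mettl3_KO2 and in 1199 of Mettl3_Control, against 952 in Ythdc1_cKO_0h.

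**Figure D3:**
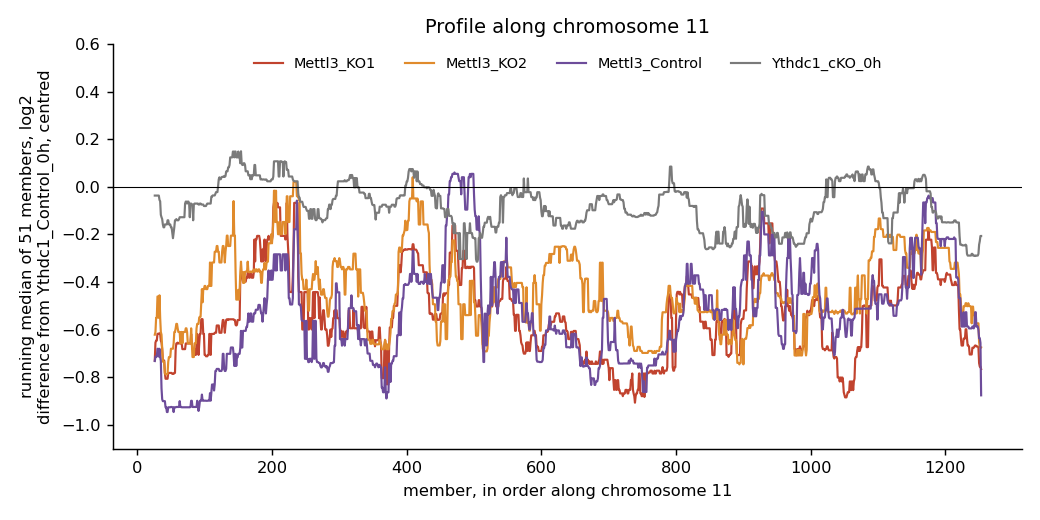
Running median over 51 members of the centred log2 difference from Ythdc1_Control_0h, with members in their order along chromosome 11. The Mettl3_KO1 (red), Mettl3_KO2 (orange) and Mettl3_Control (purple) lines stay below 0 in 1228, 1222 and 1199 of 1228 windows, and Ythdc1_cKO_0h (grey) runs between -0.31 and 0.15.

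A single step along the chromosome described little of the spread. The best split took up 0.785% of the variance in Mettl3_KO1, 0.635% in Mettl3_KO2 and 0.806% in Mettl3_Control, and both sides of each split were low. In Mettl3_KO1 it fell between Ccdc117 and Ankrd36, with medians of -0.73 before and -0.55 after. The other members beside it were Xbp1, a transcription factor of the unfolded protein response (-1.43), and Mrps24, a mitochondrial ribosomal protein gene (0.0061). In Mettl3_KO2 the split lay between Ddc and Grb10, with Fignl1 and Cobl beside them, and the medians were -0.67 and -0.42. In Mettl3_Control it lay between Ubtd2 and Efcab9, with Sh3pxd2b and Stk10 beside them, and the medians were -0.83 and -0.53. The outermost members were at the low level too. Sfi1, at the centromeric end, was at -0.78, -0.68 and -0.81 in Mettl3_KO1, Mettl3_KO2 and Mettl3_Control, and Ptchd3, at the other end, was at -3.55, -1.31 and -3.78.

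The members with the most reads in each bin show how the shift looked in single genes. Usp34, a deubiquitinase gene (chr11:23306895-23490560, mm10), had 461.5 and 460.0 CPM in Mettl3_KO1, 590.6 and 582.0 in Mettl3_KO2 and 456.1 and 482.0 in Mettl3_Control, against 983.3 and 955.6 in Ythdc1_Control_0h. Every Mettl3 library was lower than both Ythdc1_Control_0h libraries, and the centred log2 differences were -1.14, -0.73 and -1.08. Top2a, which encodes the topoisomerase that untangles DNA in dividing cells (chr11:98992943-99024189), had 988.7 and 978.7 CPM in Mettl3_KO1, 872.4 and 859.2 in Mettl3_KO2 and 732.5 and 748.3 in Mettl3_Control, against 1549 and 1496. Rack1, a component of the small ribosomal subunit, differed by -1.23, -1.43 and -1.40 in Mettl3_KO1, Mettl3_KO2 and Mettl3_Control. Cltc, the clathrin heavy chain gene, differed by -0.77, -0.69 and -0.70. Rnf213, which encodes a large ubiquitin ligase, was at -1.85, -1.31 and -2.41, and it was low in Ythdc1_cKO_0h too (-1.07).

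Other members of the same kind departed less or the other way. Prpf8, the core spliceosome gene, was at -0.69, -0.33 and -1.099, and P4hb, a protein disulfide isomerase gene, at -0.36, -0.26 and -0.47. The RNA helicase gene Ddx5 was at -0.24, -0.27 and -0.37. Eif4a1, a translation initiation helicase, was at 0.06, -0.13 and -0.40. Canx, the chaperone calnexin, was at 0.11, 0.28 and 0.16 and Sptbn1, a spectrin gene, at 0.09, 0.54 and 0.02. Ppia, the gene of cyclophilin A, was higher than the typical gene at 0.88, 0.61 and 0.16, and Cobl, an actin nucleator gene, at 0.82, 0.57 and 1.16. Of the 13 genes, 9 were thus below the typical gene in Mettl3_Control.

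Members with more RNA had lower medians. The level is the mean over the same Mettl3 and Ythdc1_Control_0h libraries that the profile compares, so these terciles are not independent of the profile. The small count added before taking logs also draws differences of genes with few reads toward 0. In the tercile of members with the highest CPM per kb the medians were -0.71 in Mettl3_KO1, -0.62 in Mettl3_KO2 and -0.82 in Mettl3_Control, against -0.03, -0.11 and -0.13 for other autosomal genes in the same range. In the lowest tercile they were -0.20, -0.06 and -0.09, against 0.19, 0.28 and 0.32. Members were lower than other genes of the same range in each tercile and group. By exon length, the shortest tercile had -0.42, -0.37 and -0.49 against 0.11, 0.08 and 0.10 for other autosomal genes, and the longest -0.59, -0.42 and -0.56, against -0.06, -0.0075 and -0.05. By promoter CpG content (observed over expected), the poorest tercile had -0.36, -0.26 and -0.30, against 0.12, 0.17 and 0.15 elsewhere, and the richest -0.65, -0.56 and -0.70, against -0.09, -0.13 and -0.10. Other autosomal genes thus differed between terciles in the same direction.

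Genes of chromosome 11 outside the coding rule were less uniform. The 142 pseudogenes that passed the count minimum had medians of -0.19, 0.31 and -0.05 in Mettl3_KO1, Mettl3_KO2 and Mettl3_Control, against 0.87, 1.04 and 0.87 for 2070 pseudogenes elsewhere. The 212 long noncoding genes had 0.41, 0.70 and 0.59, against 0.40, 0.57 and 0.60 for 4127 elsewhere. In the 45 of them with a mean of at least 50 counts the medians were -0.41, -0.07 and -0.17, against -0.29, -0.15 and -0.08. The 29 coding genes left out by symbol had -0.17, -0.06 and -0.20, against 0.04, -0.11 and -0.09.

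The 6 gene lists from the chromosome show which functions were covered. The list counts are descriptions, and the members named from them here were chosen after their values were seen. DNA repair and cell cycle genes had medians of -1.01 in Mettl3_KO1, -0.86 in Mettl3_KO2 and -1.22 in Mettl3_Control, with 22 of 23 members below the typical gene in each group. Trp53, the gene of the p53 tumour suppressor (chr11:69580359-69591873), had 138.7 and 143.0 CPM in Mettl3_KO1, 117.8 and 117.0 in Mettl3_KO2 and 136.3 and 130.3 in Mettl3_Control, against 440.7 and 454.2 in Ythdc1_Control_0h. Lig3, a DNA ligase gene, was at -1.87, -1.47 and -2.15, and Rad51c, a recombination gene, at -1.86, -1.80 and -1.37. Brca1 departed little, at -0.03, -0.08 and -0.30. The exception to the low values was the phosphatase gene Ppm1e, at 2.32, 2.68 and 2.09.

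RNA processing and m6A genes had medians of -0.71, -0.59 and -0.69 in Mettl3_KO1, Mettl3_KO2 and Mettl3_Control, with 23, 22 and 22 of 25 members below the typical gene. Mettl16, which methylates U6 and the MAT2A transcript, was at -0.94, -1.07 and -1.40. The m6A-binding protein gene Igf2bp1 was at -0.71, -0.53 and -0.56, and the RNA polymerase II subunit gene Polr2a at -1.102, -0.84 and -1.42. Chromatin genes had medians of -0.55, -0.43 and -0.86, with 22, 19 and 19 of 25 below. Among them Suz12, a core subunit of the Polycomb complex PRC2 (chr11:79993106-80034123), had 173.7 and 164.9 CPM in Mettl3_KO1, 200.1 and 209.8 in Mettl3_KO2 and 142.0 and 141.4 in Mettl3_Control, against 901.7 and 838.6 in Ythdc1_Control_0h. All 6 Mettl3 libraries lay below both Ythdc1_Control_0h libraries, and the centred differences were -2.43, -2.09 and -2.65. Chd3, a remodeller of the NuRD complex, went the other way, at 1.15, 0.87 and 0.77.

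Signalling and pluripotency genes were spread more widely, with medians of -0.20, -0.54 and -0.15 and 14, 16 and 13 of 22 members below. Osm, the cytokine oncostatin M, was at -4.20, -2.36 and -3.89, while the growth factor receptor gene Egfr was at 1.58, 2.95 and 2.18. Stat3, which transmits the LIF signal, was at -0.09, -0.09 and -0.10. The 4 imprinted members had medians of -0.84, -0.37 and -0.44, with 3, 2 and 2 below the typical gene. Commd1, a regulator of copper handling and NF-kappaB, was at -0.72, -0.96 and -1.23, and Ddc, which encodes the decarboxylase that makes dopamine, at -0.95, -0.92 and -0.90. Grb10, an adaptor that restrains insulin signalling, stood at 3.37, 1.91 and 1.29, with 17.9 and 16.0 CPM in Ythdc1_Control_0h. The 5 of 10 Hoxb genes that passed the count minimum had medians of 0.22, 0.76 and 0.37.

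**Figure D4:**
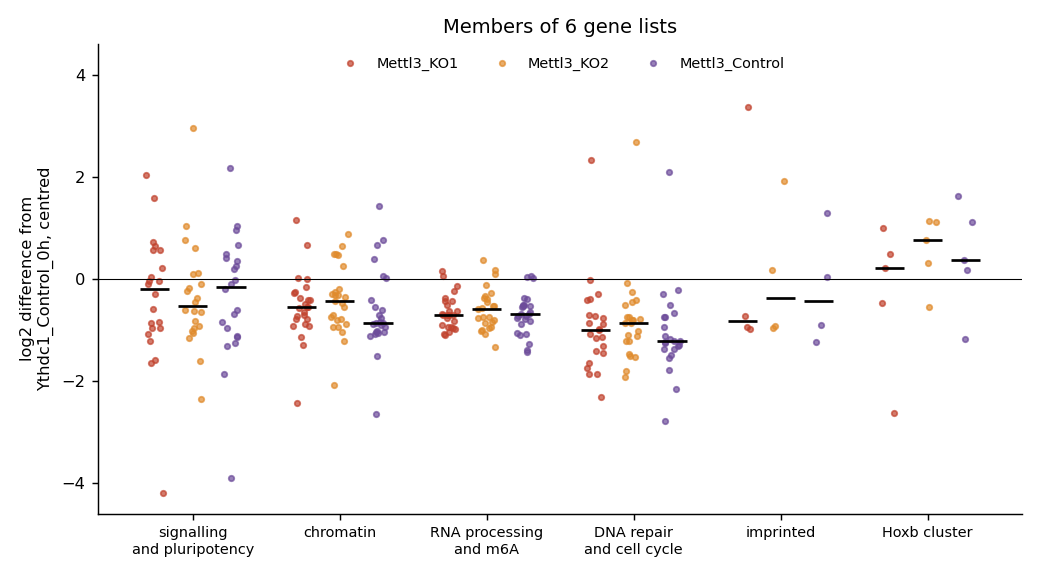
Centred log2 difference from Ythdc1_Control_0h of the members of 6 lists in Mettl3_KO1 (red), Mettl3_KO2 (orange) and Mettl3_Control (purple), 1 point per gene and group, with the median as a black line. The DNA repair and cell cycle list has the lowest medians, at -1.01, -0.86 and -1.22, and the Hoxb genes have medians above 0.

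The most extreme members, chosen after their values were seen, were far outside this range. Rangrf, whose product binds the GTPase RAN, had 0 and 0.04 CPM in Mettl3_KO1, 0 and 0.13 in Mettl3_KO2 and 0.18 and 0.08 in Mettl3_Control, against 8.80 and 11.4 in Ythdc1_Control_0h. Sp6, a zinc finger factor gene, had at most 0.35 CPM in a Mettl3 library, against 12.6 and 10.8. Tex19.2, Mien1, Elobl and Nsg2 were low in the same way. Col1a1, the type I collagen gene, went the other way with 91.5 and 90.8 CPM in Mettl3_KO1, 254.6 and 258.6 in Mettl3_KO2 and 97.8 and 94.2 in Mettl3_Control, against 1.23 and 2.29. It is also 1 of 8 fibroblast feeder markers, with 1 of them at 0 in Ythdc1_Control_0h and none at 0 in a Mettl3 group. Their summed level was 4525 to 4533 CPM in Mettl3_KO1, 5082 to 5239 in Mettl3_KO2 and 2872 to 2907 in Mettl3_Control, against 2496 to 2654 in Ythdc1_Control_0h, and their part in the Col1a1 value was not tested. Smim6, Chad, Hmga1b, Gabrp and Lrrc75a were high as well, and no read of Chad was counted in Ythdc1_Control_0h. Hmga1b has a close relative on another chromosome, so its count is uncertain.

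The tests that follow use other contrasts than the profile. Within the Mettl3 experiment, Mettl3_KO1 was compared with Mettl3_Control to see which nuclear RNAs differ between the lines. Of 1221 members tested, 356 rose (29.2%, against 23.9% of all 21802 genes tested) and 295 fell (24.2%, against 22.2%). Other autosomal coding genes were called at 29.7% up and 24.7% down, so the members were near the background. The member median lay only 0.02 above that of the other autosomes on the log2 scale. In either direction 53.3% of members were called, against 46.1% of all genes. With a change of at least 2-fold, 34 rose and 62 fell, where 3.86% and 6.36% of all genes did. Scaled to spike-in reads, which put the median of all genes at 0.17, the split became 527 up and 164 down. Other factors turned the balance the other way. Library size alone gave 303 up and 332 down, factors from coding genes off chromosome 11 gave 315 and 324, and factors from genes off chromosomes 6, 8, 11, 14, 17, X and Y, added after seeing the data, gave 290 and 349. The summed marker levels differed between the lines too, on the 18-library scale. Stem cell markers were at 3438 to 3448 CPM in Mettl3_KO1 and 2626 to 2683 in Mettl3_Control, feeder markers at 4525 to 4533 and 2872 to 2907, and 6 endoderm markers at 437.5 to 449.4 and 681.2 to 690.6. Their part in the calls was not tested.

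The members named next had the highest or lowest fold changes among called members with a mean of at least 50 counts whose libraries did not overlap between the groups, and the same rule named the extremes of the later comparisons. The CPM values from here on are scaled within an experiment. Notum (chr11:120653788-120661175), which encodes a secreted enzyme that inactivates Wnt proteins and is itself a Wnt target, had 25.3 and 25.6 CPM in Mettl3_KO1, against 5.43 and 4.80 in Mettl3_Control (log2 2.32 ± 0.11, adjusted p = 1.68e-30). Axin2 (chr11:108920349-108950783), a negative regulator and target of the same pathway, had 49.2 and 47.2 CPM, against 16.3 and 16.1 (1.57 ± 0.073, adjusted p = 9.21e-32). Both overlap genes on the opposite strand. Grb10 (chr11:11930508-12038683) had 198.9 and 192.5 CPM in Mettl3_KO1, against 45.1 and 46.6 in Mettl3_Control, a 4.27-fold rise (2.09 ± 0.049, adjusted p = 1.03e-51). The ubiquitin ligase gene Trim16 (1.81 ± 0.17), Fbxw10 (1.53 ± 0.30) and the gasdermin gene Gsdma3 (1.48 ± 0.32) rose too.

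The largest fall under that rule in Mettl3_KO1 was that of Ttll6, a tubulin glutamylase gene (chr11:96133786-96165451), with 9.46 and 9.75 CPM against 52.4 and 51.3 in Mettl3_Control (log2 -2.43 ± 0.088, adjusted p = 8.38e-39). The keratin gene Krt19 had 2.80 and 2.34 CPM, against 11.2 and 9.73 (-2.01 ± 0.19). The integrin gene Itga2b (-1.85 ± 0.19), the Polycomb gene Cbx8 (-1.80 ± 0.29), Nptx1 (-1.79 ± 0.24) and Zmynd15 (-1.70 ± 0.25) fell as well.

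By list, 15 of 25 chromatin genes rose in Mettl3_KO1 and 4 fell, 14 of 25 RNA processing genes rose and 6 fell, and 12 of 23 DNA repair and cell cycle genes rose and 4 fell. Among all genes tested 23.9% rose and 22.2% fell. The list medians were 0.17, 0.11 and 0.21, against -0.01 over all genes tested. Of 22 signalling genes, 5 rose and 9 fell, with a median of -0.09. Top2a had 1040 and 1036 CPM in Mettl3_KO1, against 783.8 and 802.9 in Mettl3_Control (log2 0.39 ± 0.028). The acetyltransferase gene Kat2a (0.50 ± 0.046), the kinase gene Cdk12 (0.35 ± 0.035), Eif4a1 (0.47 ± 0.028), Prpf8 (0.42 ± 0.027), the thymidine kinase gene Tk1 (0.56 ± 0.060), Brca1 (0.28 ± 0.032), Socs3 (0.38 ± 0.047) and Commd1 (0.52 ± 0.12) rose. The receptor gene Erbb2 (-0.60 ± 0.074), the chromatin kinase gene Tlk2 (-0.48 ± 0.043) and the imprinted splicing gene Zrsr1 (-1.0015 ± 0.063) fell. Zrsr1 lies within Commd1 on the opposite strand, so reads of the pair are uncertain. Hoxb4 fell (-1.74 ± 0.46, adjusted p = 0.00113). Hoxb2 had no read in Mettl3_KO1 and 0.57 and 0.04 CPM in Mettl3_Control (adjusted p = 0.00285), a call that was lost without Mettl3_Control replicate 1 (adjusted p = 0.385).

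Mettl3_KO2 was compared with the same Mettl3_Control libraries. Of 1221 members 433 rose (35.5%, against 24.4% of all genes) and 281 fell (23.0%, against 26.4%). In either direction 58.5% of members were called, against 50.8% of all genes. Of other autosomal coding genes 27.3% rose and 32.7% fell, so members were not called more often than those. The member median was 0.14 above that of the other autosomes on the log2 scale, and 60.9% of members lay above the median of those genes. Centred in the same way, the medians of the other autosomes ran from -0.39 (chromosome 8) to 0.27 (chromosome 16). Chromosomes 9, 16 and 18 stood higher than chromosome 11, so the rise was not particular to it. With a change of at least 2-fold, 87 rose and 80 fell, where 8.04% and 7.46% of all genes did. The control libraries are shared with the Mettl3_KO1 comparison. Scaled to spike-in reads the median of all genes was 0.53 and the split 848 up and 75 down. Of the genes named for Mettl3_KO1, Notum rose here too, with 26.1 and 27.9 CPM against the same control values (log2 2.40 ± 0.11, adjusted p = 1.33e-31), and so did Axin2, with 61.5 and 61.7 CPM (1.93 ± 0.073).

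Gsdma3 (chr11:98626360-98638226) had 7.91 and 7.56 CPM in Mettl3_KO2, against 1.05 and 0.47 in Mettl3_Control, a 10.3-fold rise (log2 3.37 ± 0.27, adjusted p = 1.28e-18). The Schlafen gene Slfn3 (2.77 ± 0.31), BC053393 (2.70 ± 0.31), the growth arrest gene Gas7 (2.19 ± 0.21) and the podosome adaptor gene Sh3pxd2b (2.17 ± 0.12) rose. Among the falls, the keratin gene Krt19 (chr11:100140810-100148665) had 1.07 and 1.16 CPM in Mettl3_KO2, against 11.2 and 9.73 in Mettl3_Control (-3.22 ± 0.22, adjusted p = 6.76e-22). Krt17 (-2.81 ± 0.23), the envoplakin gene Evpl (-2.52 ± 0.16) and the adaptor gene Grb7 (-2.76 ± 0.17) also fell. Atp2a3, a calcium pump gene, had 17.9 and 18.3 CPM, against 80.3 and 76.5 (-2.12 ± 0.067), and Tspoap1 fell by 1.98 ± 0.24. The summed level of 6 trophoblast markers, with the keratins Krt8 and Krt18 among them, was 86.0 to 87.9 CPM in Mettl3_KO2 and 110.7 to 116.4 in Mettl3_Control on the 18-library scale, and it was 87.8 to 88.3 in Mettl3_KO1. Feeder markers were at 5082 to 5239 CPM in Mettl3_KO2, against 2872 to 2907 in Mettl3_Control. The part of either sum in these values was not tested.

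In Mettl3_KO2, 14 of 25 chromatin genes rose and 2 fell, 12 of 23 DNA repair and cell cycle genes rose and 5 fell, 8 of 25 RNA processing genes rose and 4 fell, and 7 of 22 signalling genes rose and 6 fell. Among all genes tested 24.4% rose and 26.4% fell. The list medians were 0.16, 0.17, 0.05 and 0.03, against -0.03 over all genes tested. Prpf8 had 1602 and 1655 CPM, against 983.2 and 998.9 in Mettl3_Control (log2 0.72 ± 0.027, adjusted p = 4.34e-38). Suz12 (0.52 ± 0.040), the Mediator genes Med1 (0.49 ± 0.043) and Med13 (0.45 ± 0.035), Polr2a (0.54 ± 0.030), Lig3 (0.63 ± 0.049), Tk1 (0.63 ± 0.060) and the spindle gene Spag5 (0.37 ± 0.045) rose. The retinoic acid receptor gene Rara fell by 0.95 ± 0.074. The splicing factor gene Hnrnph1 fell by 0.50 ± 0.032, and scaled to spike-ins its change was 0.06 (adjusted p = 0.144). Grb10 rose by 0.57 ± 0.052, Hoxb9 by 0.74 ± 0.14 and Hoxb13 by 0.86 ± 0.25. The Hoxb13 call was lost without Mettl3_Control replicate 1 (adjusted p = 0.133).

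The lines labelled KO1 and KO2 were set against each other, which needs no control library. Here 259 members were higher in Mettl3_KO1 (21.2%, against 24.5% of all genes) and 363 were lower (29.7%, against 21.6%), and the member median lay 0.12 below that of the other autosomes. In either direction 50.9% of members were called, against 46.1% of all genes. Of other autosomal coding genes 32.3% were higher and 23.5% lower, so members were not called more often than those. The medians of the other autosomes, centred in the same way, ran from -0.14 (chromosome 16) to 0.34 (chromosome 6). At 2-fold or more, 51 were higher and 74 lower, where 4.24% and 6.79% of all genes were. With factors from coding genes off chromosome 11 the split was 188 higher and 443 lower. Scaled to spike-ins it was 61 and 788, and the median of all genes was -0.38. Krt17 had 6.28 and 6.76 CPM in Mettl3_KO1, against 0.86 and 1.39 in Mettl3_KO2 (log2 2.54 ± 0.23, adjusted p = 4.38e-16). Grb7 (2.32 ± 0.17), Krt42 (2.00 ± 0.12) and Ccdc92b (1.91 ± 0.24) were higher in Mettl3_KO1. Gsdma3 (-1.89 ± 0.22), Slfn3 (-2.04 ± 0.27), BC053393 (-2.19 ± 0.28) and the Nogo receptor-like gene Rtn4rl1 (-1.92 ± 0.20) were lower there.

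Libraries labelled Ythdc1_cKO_0h were compared with Ythdc1_Control_0h for differences before the drug. Of 1163 members tested, 144 rose (12.4%, against 13.5% of all 17900 genes tested) and 295 fell (25.4%, against 15.8%). In either direction 37.7% of members were called, against 29.4% of all genes. Of other autosomal coding genes 14.8% rose and 18.9% fell. The member median was 0.06 lower than that of other autosomes. Centred in the same way, the medians of the other autosomes ran from -0.09 (chromosome 7) to 0.08 (chromosomes 1 and 16). Chromosome 7 stood lower than chromosome 11, so the low median was not particular to chromosome 11. With a change of at least 2-fold, 27 rose and 26 fell, where 3.85% and 1.81% of all genes did, so most falls were small. Scaled to spike-ins the split was 38 up and 668 down, and the median of all genes was -0.35. Summed stem cell markers were at 2210 to 2212 CPM in Ythdc1_cKO_0h, against 2668 to 2721 in Ythdc1_Control_0h, feeder markers at 3165 to 3316, against 2496 to 2654, and 5 neuroectoderm markers at 21.4 to 21.7, against 36.6 to 38.4. Their part in the calls was not tested.

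Abca6, a lipid transporter gene (chr11:110176820-110251776), had 8.13 and 8.03 CPM in Ythdc1_cKO_0h, against 0.87 and 2.13 in Ythdc1_Control_0h (log2 2.33 ± 0.30, adjusted p = 7.81e-08). BC030499 had 26.3 and 25.7 CPM, against 9.85 and 7.47 (1.61 ± 0.17). The chemokine gene Cxcl16 (1.49 ± 0.22), the homeobox gene Meis1 (1.32 ± 0.26), the endocytic collagen receptor gene Mrc2 (1.31 ± 0.19) and Krt19 (1.49 ± 0.35) rose. The Krt19 call was lost without Ythdc1_cKO_0h replicate 2 (adjusted p = 0.086). The coatomer gene Copz2 had 2.93 and 2.90 CPM in Ythdc1_cKO_0h, against 10.5 and 9.61 (-1.78 ± 0.21). The myosin gene Myl7 (-1.70 ± 0.34), the germ cell RNA-binding gene Ybx2 (-1.53 ± 0.27), Unc119 (-1.39 ± 0.19), Slfn9 (-1.32 ± 0.33) and the proline synthesis gene Pycr1 (-1.30 ± 0.17) fell.

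Of the lists, DNA repair and cell cycle genes had 5 of 23 up and 10 down in Ythdc1_cKO_0h, RNA processing genes 3 of 25 up and 10 down, chromatin genes 5 of 25 up and 9 down, and signalling genes 7 of 22 up and 3 down. Among all genes tested 13.5% rose and 15.8% fell. The list medians were -0.12, -0.13, -0.19 and 0.11, against 0.01 over all genes tested. Tk1 had 31.3 and 29.7 CPM, against 71.3 and 69.7 in Ythdc1_Control_0h (log2 -1.21 ± 0.089, adjusted p = 2.55e-13). Osm (-1.94 ± 0.27), Axin2 (-0.67 ± 0.11), the BAF subunit gene Smarcd2 (-0.84 ± 0.084), Cbx1 (-0.37 ± 0.062), Hnrnpab (-0.62 ± 0.053), Srsf2 (-0.32 ± 0.050), Ddc (-0.52 ± 0.12) and Commd1 (-0.39 ± 0.12) fell. The p53 target gene Ccng1 had 742.1 and 667.3 CPM, against 453.7 and 444.3 (0.65 ± 0.056, adjusted p = 1.17e-11). Spag5 (0.52 ± 0.059), Egfr (1.18 ± 0.23), the H3.3 gene H3f3b (0.31 ± 0.049) and Polr2a (0.24 ± 0.040) rose. Scaled to spike-ins Spag5 lost its call (adjusted p = 0.0603), and the change was -0.05 for H3f3b and -0.12 for Polr2a. The Commd1 call was lost without Ythdc1_Control_0h replicate 2 (adjusted p = 0.0639) or without Ythdc1_cKO_0h replicate 1 (adjusted p = 0.0951).

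The libraries after 6 h of actinomycin D were compared with those at 0 h for changes in nuclear RNA once synthesis stops. In nuclear RNA, loss by decay and loss by export cannot be told apart. The scaling factors of edgeR put the median change of all genes at 0.03 and that of other autosomal coding genes at 0.15. Against Ythdc1_Control_0h, 574 of 1163 members were then higher in Ythdc1_Control_6h (49.4%, against 33.1% of all genes). Another 273 were lower (23.5%, against 31.7%). In either direction 72.8% of members were called, against 64.8% of all genes. Of other autosomal coding genes 37.9% were higher and 28.3% lower. The member median lay 0.21 above that of the other autosomes. Centred in the same way, the medians of the other autosomes ran from -0.25 (chromosome 3) to 0.28 (chromosome 17). On chromosome 17 49.9% of coding genes were higher and on chromosome 7 46.9%, so the rise was not particular to chromosome 11. At 2-fold or more, 227 were higher and 89 lower, where 14.8% and 18.1% of all genes were. Library size alone gave 465 up and 348 down, and the median of all genes was then -0.16. Scaled to spike-ins the median of all genes was -0.88, with 119 members up and 680 down. A rise below is thus relative to the other RNA of a library. Unassigned reads made up 21.06% and 21.02% in Ythdc1_Control_6h, against 50.1% and 49.7% in Ythdc1_Control_0h, and reads ambiguous between genes 10.1% and 10.2%, against 2.91% and 2.67%. The summed feeder markers were at 4927 to 4973 CPM at 6 h, against 2496 to 2654 at 0 h, and the endoderm markers at 1058 to 1066, against 358.3 to 372.9. Of the 8 feeder markers, 2 had no read in Ythdc1_Control_6h and 1 had none in Ythdc1_Control_0h, so the sum does not describe every marker. The part of these sums in the 6 h change was not tested.

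The 6 h change was not the same in all bins. In the bin from 20 to 30 Mb, 6 members rose and 29 of 44 fell, with a centred median of -0.70, and in the bin from 10 to 20 Mb the median was -0.53 over 16 members. In the bins from 0 to 10, 90 to 100 and 110 to 120 Mb the medians were 0.41, 0.49 and 0.44. There 52 of 84, 66 of 126 and 69 of 117 tested members were up and 15, 22 and 18 down. Over all genes tested the shares were 33.1% up and 31.7% down. The adjusted p-values behind the counts belong to single genes, and no test was made of the bins. Bins of other chromosomes were not examined for this change, so how much bins differ elsewhere is not known.

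**Figure D5:**
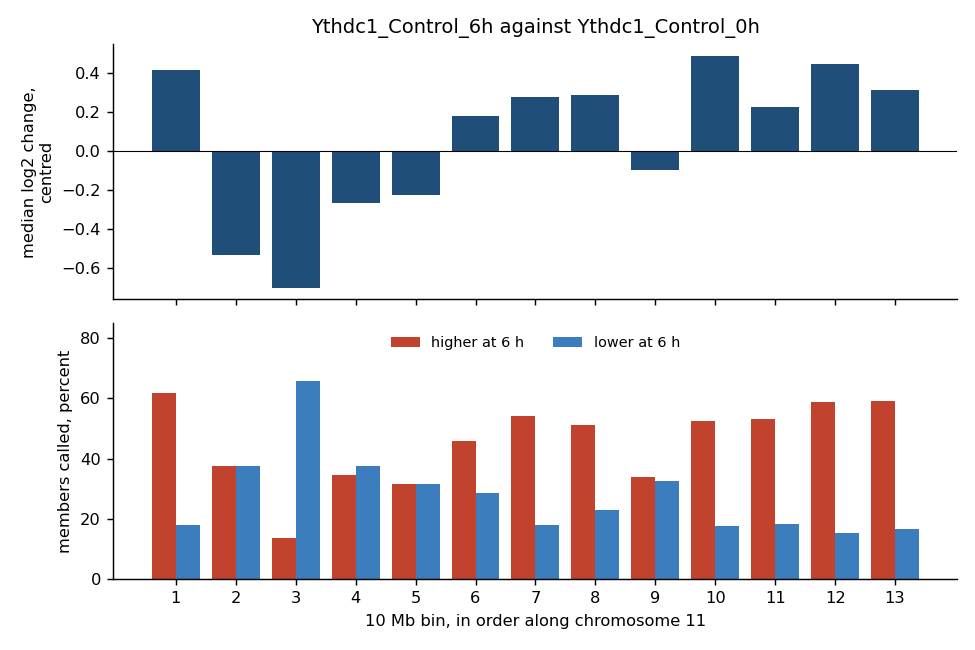
Members of chromosome 11 in 13 bins of 10 Mb, in order, in Ythdc1_Control_6h against Ythdc1_Control_0h: the median log2 change centred on other autosomes (top) and the percent of tested members called higher (red) or lower (blue) at 6 h (bottom). Bin 3, from 20 to 30 Mb, has a median of -0.70 with 6 of 44 members up and 29 down. Bin 10, from 90 to 100 Mb, has 0.49 with 66 of 126 up and 22 down.

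Atox1, the copper chaperone gene (chr11:55446641-55461239), had 211.0 and 201.5 CPM in Ythdc1_Control_6h, against 45.3 and 49.1 in Ythdc1_Control_0h (log2 2.12 ± 0.080, adjusted p = 3.28e-23). The selenoprotein gene Selenom (2.06 ± 0.14), Emid1 (2.05 ± 0.27) and Mrc2 (1.96 ± 0.18) also rose relative to the typical gene. BC030499 (chr11:78290841-78296805) had 0.79 and 0.54 CPM at 6 h, against 9.85 and 7.47 at 0 h (-3.69 ± 0.33, adjusted p = 1.44e-12). Socs3 (chr11:117966079-117970047), the feedback inhibitor of the LIF and STAT3 signal, had 13.1 and 13.9 CPM, against 62.8 and 69.5 (-2.29 ± 0.11, adjusted p = 1.09e-20). Nsrp1, a splicing regulator gene (-2.23 ± 0.15), and Tmem11, a mitochondrial membrane protein gene (-2.08 ± 0.12), fell as well. By list, 12 of 22 signalling genes fell and 7 rose, 11 of 25 chromatin genes fell and 10 rose, and 13 of 25 RNA processing genes fell and 9 rose. In the DNA repair and cell cycle list 8 of 23 rose and 8 fell. Among all genes tested 33.1% rose and 31.7% fell. The list medians were -0.29, -0.37, -0.20 and 0.07, against 0.03 over all genes tested.

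The 6 h change was then compared between genotypes by an interaction term, the change in Ythdc1_cKO minus that in Ythdc1_Control. This decay difference, as it is called below, does not separate decay from export. It was positive for 111 of 1163 members (9.54%, against 9.77% of all genes) and negative for 147 (12.6%, against 9.35%). In either direction 22.2% of members were called, against 19.1% of all genes. At 2-fold or more, 6 were positive and 20 negative, where 1.73% and 1.89% of all genes were. The split depended on the scaling. Library size alone gave 208 positive and 83 negative (the median of all genes was 0.11), and spike-ins gave 78 and 168. DESeq2 size factors gave 135 and 134, and no filter on low counts gave 187 and 73. Socs3 had 41.7 and 43.1 CPM in Ythdc1_cKO_6h and 82.4 and 89.2 in Ythdc1_cKO_0h, against 13.1 and 13.9 in Ythdc1_Control_6h and 62.8 and 69.5 in Ythdc1_Control_0h (difference of log2 changes 1.28 ± 0.14, adjusted p = 1.2e-08). It thus fell in both genotypes, and by less in the libraries labelled cKO. BC030499 had 13.0 and 10.97 CPM in Ythdc1_cKO_6h and 26.3 and 25.7 in Ythdc1_cKO_0h (2.53 ± 0.40, adjusted p = 1.05e-05). It overlaps a gene on the opposite strand.

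Mrc2 had 18.7 and 17.5 CPM in Ythdc1_cKO_6h and 11.8 and 16.3 in Ythdc1_cKO_0h, against 21.3 and 22.7 in Ythdc1_Control_6h and 4.65 and 6.40 in Ythdc1_Control_0h (difference -1.61 ± 0.24, adjusted p = 5.03e-06). The 6 h levels were close to each other, and the 0 h level was higher in cKO. The metalloprotease-like gene Adam11 (-1.48 ± 0.34) and the transcription activator gene Camta2 (-1.16 ± 0.26) had negative differences too. Positive differences were also called for the Mediator gene Med31 (1.08 ± 0.35, adjusted p = 0.0237) and Myl7 (1.18 ± 0.43, adjusted p = 0.0474). The Myl7 call was lost under 11 of the other settings tried, with an adjusted p of up to 0.253, and that of Med31 without any 1 of 4 libraries (Ythdc1_Control_0h replicate 2, Ythdc1_Control_6h replicate 1, Ythdc1_cKO_0h replicate 1 and Ythdc1_cKO_6h replicate 2; adjusted p of 0.084 to 0.141).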

How the data were processed

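The authors deposited raw counts of reads per gene for each library, made with HTSeq and not normalized. Per the submitters' processing notes, reads went through CASAVA, were trimmed with Trimmomatic 0.38 and aligned to mm10 with HISAT2 2.1.0. The strand setting of the counting is not given in the sources used here. The counts of 484 members that overlap a gene on the opposite strand are therefore uncertain. Per the labels' protocols, ERCC spike-in RNA was added to the nuclear RNA before ribosomal RNA removal, and the libraries were made with a stranded total RNA kit. The counts are those of the authors' table of all libraries (0 cells differ from the files of single libraries), and 0 columns of it were left without a library. The 5 summary lines and 92 spike-ins entered no library size. The line for reads assigned to no gene held 18.05% to 53.56% of gene, ambiguous and such reads together. Biotypes and positions came from GENCODE M21, which held 54409 of the 54446 identifiers without their version.

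The profile uses log2 CPM with a prior count of 2 and TMM factors over 18 libraries. The tests used edgeR 4.0.16 (R 4.3.3), with TMM, a minimum count of 10 and robust quasi-likelihood dispersions, in 1 fit of the 6 Mettl3 libraries (21802 genes; biological coefficient of variation 4.09%) and 1 of the 12 Ythdc1 libraries (17900 genes; 6.52%). Genes with an adjusted p under 0.05 were called. The fit was tested on simulated counts. With 2 libraries per group an exact permutation test cannot go below p = 0.333, so none was made. Members and lists were chosen with earlier results of these data known. Named genes are the member with most reads in each bin, those beside a split, the 6 (or 4) largest changes each way among called members with a mean of 50 counts and no overlap between groups, and up to 3 called members per list; 1 of them is not reported here. DESeq2 1.42.0, other factors, filters, the replicate number as a block and leaving out each library were tried as alternatives, and factors from genes off chromosomes 6, 8, 11, 14, 17, X and Y were added after seeing the data.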

Additional observations from a re-analysis of the deposited data

Results flagged for a closer look

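By edgeR's quasi-likelihood interaction term, the 6 h change under actinomycin D differed between libraries labelled Ythdc1_cKO and Ythdc1_Control for 258 of 1163 members. These were 22.2% of members, near the 19.1% of all genes. Among the members named for the interaction term, the difference of log2 changes (cKO minus Control) was 2.53 for BC030499 and 1.28 for Socs3. The difference was 1.18 for Myl7 and 1.08 for Med31, whose calls were lost under several other settings. It was -1.61 for Mrc2, -1.48 for Adam11 and -1.16 for Camta2.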

How the results depend on the processing

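Under the alternatives, 110 of the profile medians and total counts of called members stayed close to their value and 20 moved. The rule for a close total was wide. For Mettl3_KO1 against Mettl3_Control, the DESeq2 Wald test gave 517 called members, against 651, and was taken as close. The balance of rises and falls within a total could also turn. Of the tests of named genes 1433 kept their call, 21 lost it and 3 turned. Requiring a 2-fold change left 96 called members for Mettl3_KO1 against Mettl3_Control, 167 for Mettl3_KO2, 125 for KO1 against KO2, 53 for Ythdc1_cKO_0h, 316 for Ythdc1_Control_6h and 26 for the decay difference. Spike-in scaling gave 706 for Ythdc1_cKO_0h, and it turned Hnrnph1 (Mettl3_KO2, 0.0588), H3f3b (Ythdc1_cKO_0h, -0.054) and Polr2a (Ythdc1_cKO_0h, -0.12). Why these values moved was not tested. The profile medians of Mettl3_KO1, Mettl3_KO2 and Mettl3_Control were -0.60, -0.47 and -0.60 with a minimum of 50 counts, -0.44, -0.40 and -0.41 with 1 count, and -0.48, -0.39 and -0.50 against Ythdc1_cKO_0h. With chromosomes 6, 8, 14 and 17 left out of the typical gene, Mettl3_KO2 had -0.47 and Mettl3_Control -0.51. Over all settings 503 of 507 bin medians were below 0. Leaving out 1 library at a time gave 547 to 593 called members (651 with all) for Mettl3_KO1, 599 to 653 (714) for Mettl3_KO2, 489 to 525 (622) for KO1 against KO2, 309 to 400 (439) for Ythdc1_cKO_0h, 763 to 806 (847) for Ythdc1_Control_6h and 187 to 287 (258) for the decay difference; a lone library was then assumed to vary like the other groups. The profile medians ranged from -0.57 to -0.54, -0.45 to -0.41 and -0.58 to -0.54. Same-numbered libraries did not deviate together (correlations of -0.034 to 0.043), and the replicate block gave 641, 708, 615, 457, 851 and 292 called members in the same order. The filter on low counts left 57 members untested in the Mettl3 fit, where libraries held 20444256 gene reads or more, and 115 in the Ythdc1 fit, where they held 4950973 or more.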
